A study of Homo sapiens with 2 samples.

Results

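Intron-rich genes are described here with the clusters that ZC3H7A and ZC3H7B left in their introns, in cells labelled HEK293, a human embryonic kidney cell line. A gene was chosen by a measured value, its number of clusters called intronic, and entered with 5 or more in at least 1 of the 2 libraries. Rows naming a class of repeats or of small RNAs were left out. The rule chose 356 of the 10151 genes listed in either table, or 3.51%. These genes held 1534 of the 3203 intronic clusters of the ZC3H7A library (47.9%, 46.1 to 49.6%) and 3460 of the 6115 of the ZC3H7B library (56.6%, 55.3 to 57.8%).

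The libraries came from PAR-CLIP, a crosslinking and immunoprecipitation method in which 4-thiouridine in RNA crosslinks to a bound protein and is then read as a T-to-C conversion. A cluster is a group of overlapping reads. 1 library was made from cells with Flag/HA-ZC3H7A and 1 from cells with Flag/HA-ZC3H7B. In both, doxycycline at 1 µg/mL induced the tagged protein for 24 h, 100 µM 4-thiouridine labelled RNA for 16 h, and irradiation was at 365 nm. The growth notes also name a Flp-In T-REx line, and which line carried the tagged proteins is not settled by the labels. The labels name no loss of the cell's own protein, whether each line was 1 clone is not stated in the sources used here, and no control library was analysed here. With 1 library for each protein, no value has a replicate check, no difference between the proteins was tested, and the 95% intervals, which are exact, cover counting error alone.

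On 8209 genes with ZC3H7A lay 51817 clusters with 3780104 reads, and on 9163 genes with ZC3H7B lay 99812 clusters with 2409541 reads. In what follows, "with ZC3H7A" and "with ZC3H7B" mean in the library of that protein, and the ZC3H7A value comes first in each pair. Reads per distinct read averaged 12.6 with ZC3H7A and 1.99 with ZC3H7B. Reads can be PCR copies of 1 molecule, which makes the intervals on reads too narrow. Of 5 markers of HEK293 cells, IGF2BP1, LIN28B and VIM were listed in both tables and PAX2 and NEFM in neither, and all of 4 markers of other cell types were missing from both tables. The transcripts of ZC3H7A and ZC3H7B themselves had no intronic cluster in either library, with 28 and 11 clusters on ZC3H7A and 21 and 35 on ZC3H7B. Reads were 82704 and 158 on ZC3H7A and 1362 and 3768 on ZC3H7B. Reads of the induced tagged transcript and of the cell's own were not told apart.

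Introns are cut out of the primary transcript in the nucleus and most are degraded there, so RNA of an intron is normally scarce beside the mature message. A sequence called intronic in 1 transcript model can be an exon or part of an untranslated region (UTR) in another. Some introns are retained in polyadenylated nuclear RNA, a class described as detained introns, and some carry microRNA hairpins or small nucleolar RNAs. ZC3H7A and ZC3H7B are CCCH zinc finger proteins that have been described as binding the hairpins of a few microRNA precursors, MIR16-2 and MIR29A among them, through the letters AUAA or AUAU.

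Because of that described binding, hairpins lying inside intron-rich genes on the same strand were looked up in RefSeq (GRCh38.p14). Inside 21 of the 355 matched genes (5.92%) lay 22 such hairpins, beside 4.33% of 9570 listed genes. AUAA or AUAU, searched on the strand of the hairpin, was in 5 of the 22 (22.7%) and in 405 of all 1562 RefSeq hairpins (25.9%). The search covered the whole hairpin and took no account of where in it the letters lay. A match is therefore not a binding site. The following 6 hairpins are shown because the first 3 had a row of their own in the ZC3H7A table and the other 3 lie in microRNA host genes described below. Capitals mark AUAA or AUAU.
MIR3145: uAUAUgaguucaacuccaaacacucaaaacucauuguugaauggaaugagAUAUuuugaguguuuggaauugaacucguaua
MIR5089: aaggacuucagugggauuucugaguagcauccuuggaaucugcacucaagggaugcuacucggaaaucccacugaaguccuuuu
MIR3654: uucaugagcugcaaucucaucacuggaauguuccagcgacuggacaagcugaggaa
MIR103A1: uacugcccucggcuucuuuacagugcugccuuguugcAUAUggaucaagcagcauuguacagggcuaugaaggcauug
MIR218-1: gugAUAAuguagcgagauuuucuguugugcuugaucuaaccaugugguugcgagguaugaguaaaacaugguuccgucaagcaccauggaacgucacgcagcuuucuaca
MIR186: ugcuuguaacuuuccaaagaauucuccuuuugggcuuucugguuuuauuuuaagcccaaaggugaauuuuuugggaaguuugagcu

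MIR3145 lies at chr6:138435213-138435294 on the minus strand inside NHSL1, and MIR5089 at chr17:46973017-46973100 on the plus strand inside GOSR2. MIR103A1 lies at chr5:168560896-168560973 on the minus strand inside PANK3, and MIR218-1 at chr4:20528275-20528384 on the plus strand inside SLIT2. MIR3654 lies at chr7:133034860-133034915 inside CHCHD3 and MIR186 at chr1:71067631-71067716 inside ZRANB2, both on the minus strand. MIR3145 holds AUAU at both places in capitals, MIR103A1 holds it once, MIR218-1 holds AUAA near its 5' end, and MIR5089, MIR3654 and MIR186 hold neither. In the ZC3H7A library MIR3145 was listed with 1 cluster of 26 reads (2 distinct), and MIR5089 with 1 cluster of 22 reads (2 distinct). MIR3654 was listed there with 16 reads (2 distinct). These were 3 of 17 hairpins with a row in the ZC3H7A table, and none of the 13 hairpins with a row in the ZC3H7B table lay inside an intron-rich gene. The intronic clusters have no positions in the tables, so none of them can be placed on a hairpin.

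A mature microRNA of each of the MIR103A1 and MIR218-1 hairpins is shown with the seed, bases 2 to 8, in capitals.
hsa-miR-103a-3p: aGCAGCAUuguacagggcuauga
hsa-miR-218-5p: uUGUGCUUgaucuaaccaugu
PANK3, a pantothenate kinase that hosts MIR103A1, had 5 intronic clusters of 66 with ZC3H7A and 12 of 96 with ZC3H7B, with 50 and 72 in its 3' UTR. SLIT2, an axon guidance ligand that hosts MIR218-1, had 16 of 27 and 13 of 37. The intronic share was thus lower in PANK3, at 7.58% and 12.5%, than in SLIT2, at 59.3% and 35.1%. ZRANB2, a splicing-related zinc finger gene that hosts MIR186, had 2 of 20 and 9 of 36. Of 42 microRNA hosts on a list, 25 were listed in either table and these 3 were intron-rich, beside 3.51% of all listed genes. SMC4, a condensin gene and host of MIR16-2, had none of 28 and 3 of 47 and stayed under the minimum.

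The highest numbers of intronic clusters were on C16orf72, which encodes a stress-response regulator also called HAPSTR1. It held 62 intronic clusters of 81 with ZC3H7A and 75 of 98 with ZC3H7B, or 76.5% in each. ERC1, a scaffold of the presynaptic active zone, had 36 of 45 and 54 of 105. The ERC1 share was 80.0% with ZC3H7A and 51.4% with ZC3H7B, where 38 of its clusters lay in the 3' UTR against 3 in the ZC3H7A library. MRPL19, a protein of the large mitochondrial ribosomal subunit, had 38 of 61 and 29 of 53, and was among the minority with more intronic clusters in the ZC3H7A library.

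MBD3, a subunit of the NuRD chromatin remodelling complex, had 25 intronic clusters of 39 with ZC3H7A and 37 of 42 with ZC3H7B. TROVE2, which encodes the Y RNA-binding protein Ro60, had 23 of 49 and 41 of 60. C7orf55-LUC7L2, a readthrough symbol that includes the U1-associated splicing factor LUC7L2, had 21 of 37 and 32 of 48. In all 3 the ZC3H7B library had both more intronic clusters and a larger intronic share. MATR3, the nuclear matrix protein matrin 3, had 16 of 46 and 21 of 61, and NUP153, a nuclear pore protein, had 15 of 37 and 25 of 52. MATR3 kept nearly the same share, 34.8% and 34.4%.

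CCND2, which encodes cyclin D2, had 19 intronic clusters of 73 and 31 of 74. Its 3' UTR held more, 47 and 40. CSNK2A2, a catalytic subunit of casein kinase 2, had 18 of 28 and 34 of 45. AKT2, a kinase of insulin signalling, had 15 of 34 and 40 of 54, so that its intronic share was 44.1% and 74.1%. RFC3, a subunit of the clamp loader of DNA replication, had 14 of 24 and 21 of 42. HSPA14, a member of the Hsp70 family, had 14 of 25 and 27 of 39.

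In a further set most clusters were intronic. ZNF536, a zinc finger transcription factor, had 16 of 18 with ZC3H7A and 50 of 59 with ZC3H7B, with 460 and 621 reads in all. AVL9, a gene of the late secretory pathway, had 9 of 11 and 32 of 36. KIAA1958 had 17 of 26 and 45 of 61. With ZC3H7B, ZNF536 thus came right after C16orf72 and ERC1 by intronic clusters, with 10.5 reads per cluster, whereas ERC1 had 281 reads per cluster there.

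Fewer genes had more intronic clusters with ZC3H7A than with ZC3H7B. SARS, the cytosolic seryl-tRNA synthetase, had 17 of 29 and 12 of 22. PCNX, the human pecanex homologue, had 17 of 24 and 11 of 31. Among genes named after their values were seen, PCDH7, a protocadherin, had 13 of 29 and 4 of 20, and KIF24, a kinesin, had 12 of 13 and 4 of 9. In all, 301 of the 356 genes had more intronic clusters in the ZC3H7B library, 45 had more in the ZC3H7A library and 10 had equal numbers. Of the 356, 225 entered through the ZC3H7B library alone and 32 through the ZC3H7A library alone, so nothing is read from these numbers. The ZC3H7B library had 1.93 times as many clusters on all genes and 1.64 times as many intronic clusters on the 99 genes past the minimum in both. The choice on intronic clusters also shapes the value for these 99 genes. The rule sets the corresponding values of 2.26 for all intron-rich genes and 1.59 for the other genes. Over all genes, chosen or not, intronic clusters were 6.18% of clusters with ZC3H7A and 6.13% with ZC3H7B.

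**Figure D1:**
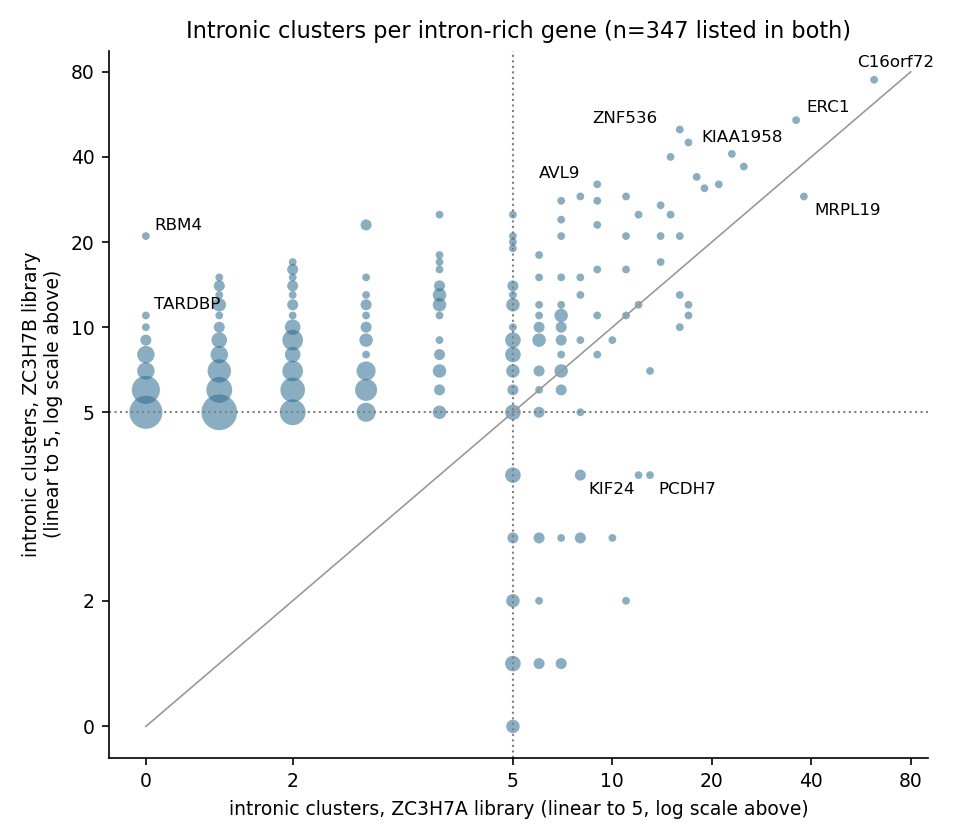
Intronic clusters of each intron-rich gene in the ZC3H7A library (x axis) and the ZC3H7B library (y axis), both linear up to 5 and logarithmic above, with the minimum of 5 as dotted lines and equal numbers as a grey line. Each point stands for the genes at that pair of values, larger where there are more, over the 347 genes listed in both tables; C16orf72 is at 62 and 75, RBM4 at 0 and 21.

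**Figure D2:**
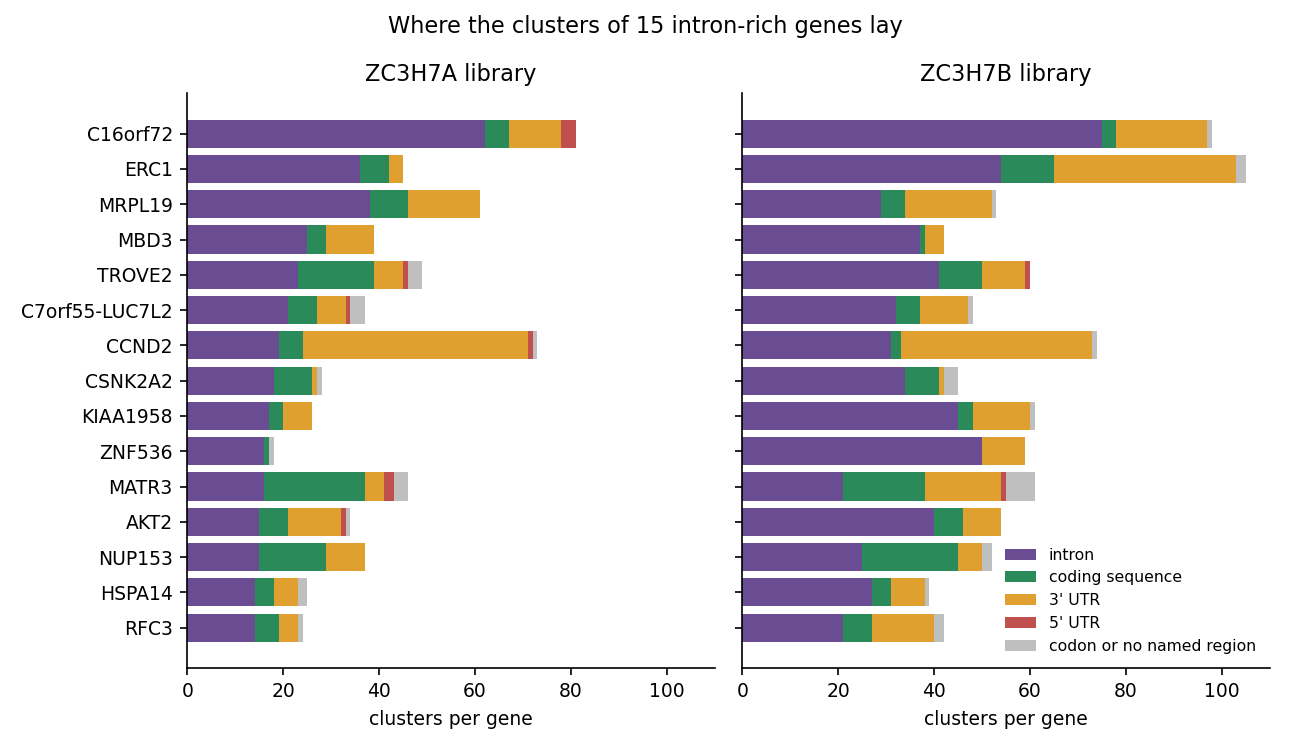
Number of clusters per gene (x axis) in introns, coding sequence, the 3' UTR, the 5' UTR and start or stop codons or no named region, for the 15 genes with the highest lower count of intronic clusters, in each library. Introns take most of the bar in C16orf72 and MBD3, whereas the 3' UTR takes more than the intron in CCND2.

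The intron-rich genes differed widely in how many intronic clusters they held. In the library where a gene had more, 239 genes had 5 to 9, 84 had 10 to 19, 21 had 20 to 29 and 12 had 30 or more. The 10 leading genes held 8.62% of all intronic clusters with ZC3H7A and 7.20% with ZC3H7B. Intronic clusters made up 31.0% of all clusters of the intron-rich genes with ZC3H7A (29.7 to 32.3%) and 37.3% with ZC3H7B (36.3 to 38.3%). On the other genes they made up 3.56% (3.39 to 3.73%) and 2.93% (2.82 to 3.04%). These shares describe what the rule chose, and nothing is read from them.

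The genes nearest to the minimum lay as follows. At exactly 5 in the higher library there were 80 genes, among them HNRNPDL, an RNA-binding protein (5 of 29 and 5 of 30), STC2, a secreted glycoprotein (3 of 44 and 5 of 28), SLC7A1, an arginine transporter (1 of 52 and 5 of 56), and LBR, the lamin B receptor (1 of 25 and 5 of 45). Just outside, at 4, there were 127 genes, among them KLHL15, an adaptor of a ubiquitin ligase (3 of 65 and 4 of 46), CCNB1, which encodes cyclin B1 (3 of 18 and 4 of 20), INSIG1, a sterol sensor protein (4 of 25 and none of 25), and ZFP30, a zinc finger gene (4 of 38 and none of 38).

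Clusters of the same genes outside introns did not enter the rule. Of the 347 genes listed in the ZC3H7A table, 291 also had a cluster in coding sequence, 227 in the 3' UTR and 110 in the 5' UTR. Of the 356 in the ZC3H7B table, 299, 287 and 42 did. Taken over coding and 3' UTR clusters together, 60.8% (59.0 to 62.5%) lay in coding sequence with ZC3H7A and 44.8% (43.4 to 46.1%) with ZC3H7B. On other genes the coding share was 51.1% (50.6 to 51.6%) and 34.0% (33.6 to 34.3%), lower in both libraries. The 5' UTR held 5.04% (4.33 to 5.83%) and 1.24% (0.970 to 1.56%) of the clusters outside introns, beside 3.75% and 0.794% on other genes. Clusters of 1 gene are not independent draws, so these intervals leave out the spread between genes. Intron-rich genes also had more clusters per gene than other genes, and these shares were not compared at equal numbers of clusters.

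SON, a large splicing cofactor, had 60 of 74 clusters in coding sequence with ZC3H7A and 44 of 78 with ZC3H7B, beside 7 and 21 intronic ones. Apart from ERC1, the intron-rich genes with the most reads with ZC3H7A had 3 to 12 intronic clusters there. ZNF711, a zinc finger transcription factor, led with 33979 reads with ZC3H7A and had 7 intronic clusters of 49 there and 3 of 30, with 8675 reads, with ZC3H7B. HNRNPA2B1, an abundant nuclear RNA-binding protein, had 3 of 21 (25355 reads) and 9 of 28 (3127 reads). USP1, a deubiquitinase of DNA repair, had 3 of 33 (9863 reads) and 6 of 41 (2812 reads). ZNF529, another zinc finger gene, had 12 of 48 (10581 reads) and 12 of 66 (2207 reads).

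Genes chosen in 1 library were then looked up in the other, whose values had no part in that choice, with genes not listed there counted as having none. Of 131 genes with 5 or more intronic clusters with ZC3H7A, 128 (97.7%) had at least 1 with ZC3H7B and 99 (75.6%) had 5 or more. Of 6675 genes that had no intronic cluster with ZC3H7A, 12.4% had at least 1 with ZC3H7B and 0.689% had 5 or more. The share with 5 or more was 6.10% for 983 genes with 1, 26.2% for 420 genes with 2 to 4, 71.7% for 99 genes with 5 to 9 and 87.5% for 32 genes with 10 or more. It was thus higher in each class than in the one before.

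In the other direction, 324 genes had 5 or more in the ZC3H7B library. Of these, 269 (83.0%) had at least 1 intronic cluster in the ZC3H7A library and 99 (30.6%) had 5 or more. Of the 7193 genes with none in the ZC3H7B library, 7.24% had at least 1 in the ZC3H7A library and 0.0417% had 5 or more. The 99 shared genes were therefore 75.6% of one list and 30.6% of the other, which differ in length. The minimum was passed with ZC3H7A alone by 32 genes and with ZC3H7B alone by 225.

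Genes chosen in 1 library also had more clusters of any kind in the other. Listed genes chosen with ZC3H7A had a median of 24 clusters with ZC3H7B, beside 8 for listed genes with no intronic cluster in the ZC3H7A library. The lookup was therefore repeated among genes with a like number of clusters in the library that was read, a split chosen after the data were seen. Among genes with 20 to 39 clusters in the ZC3H7B library, 44 of 44 chosen in the ZC3H7A library had an intronic cluster, and 218 of 959 with none there (22.7%). Among genes with 20 to 39 clusters with ZC3H7A, 63 of 65 chosen with ZC3H7B (96.9%) had one, and 39 of 262 with none there (14.9%). With 10 to 19 clusters the shares were 94.7% and 17.6% in the ZC3H7B library and 88.6% and 14.2% in the ZC3H7A library. Both libraries come from cells labelled HEK293, and the part of transcript abundance and intron length in this overlap was not tested.

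**Figure D3:**
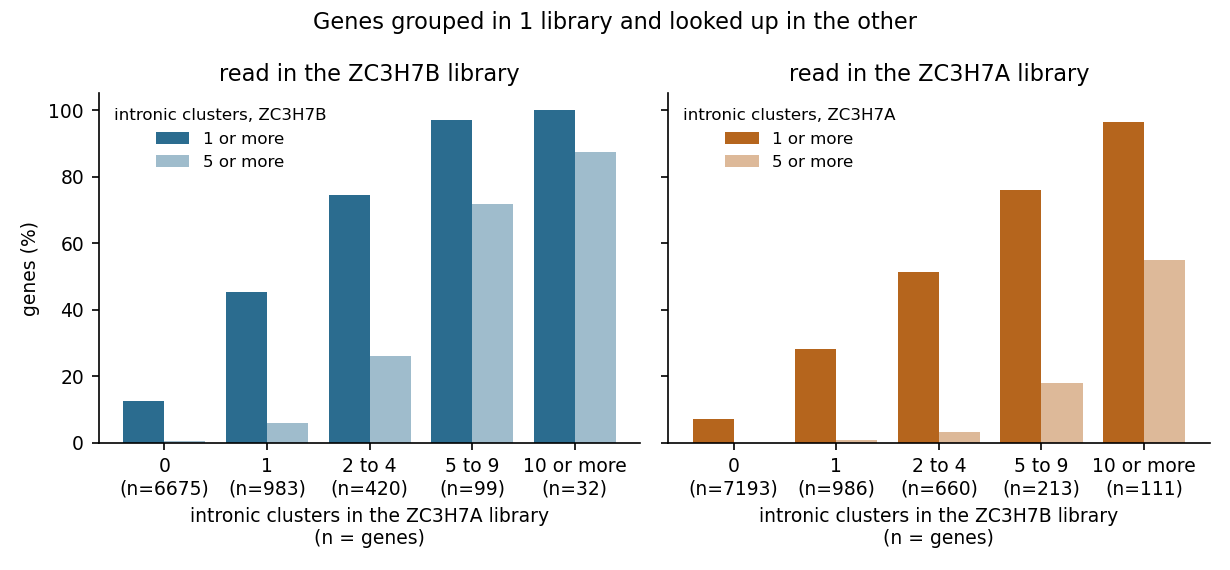
Percent of genes with 1 or more and with 5 or more intronic clusters in the library that was read (y axis), for genes grouped by their intronic clusters in the other library (x axis, number of genes in brackets). Left, genes grouped by the ZC3H7A library rise from 12.4% to 100% for 1 or more; right, genes grouped by the ZC3H7B library rise from 7.24% to 96.4%.

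Among the 99 genes past the minimum in both libraries, the intronic share of a gene's clusters had a median of 54.5% with ZC3H7A and 50.0% with ZC3H7B. The share was higher with ZC3H7A in 50 genes, higher with ZC3H7B in 44 and equal in 5. Gene by gene, going from the ZC3H7A to the ZC3H7B library shifted the share by -0.013 points at the median, so almost not at all. A minimum of 5 asks for a larger share where a gene has fewer clusters. Intron-rich genes had medians of 11 clusters with ZC3H7A and 21 with ZC3H7B, so nothing is read from the gap between 54.5% and 50.0%. In 39 of the 99 genes most clusters were intronic in both libraries, and in 38 intronic clusters were no majority in either. C16orf52 had only intronic clusters, 9 of 9 and 16 of 16. The same held for MVP, the major vault protein (6 of 6 and 11 of 11), PURG, a purine-rich element binding protein (6 of 6 and 5 of 5), and TIAM2, an activator of Rac (5 of 5 in both). Beyond these 4, another 10 intron-rich genes that passed the minimum in 1 library had only intronic clusters in both, such as WWOX (2 of 2 and 8 of 8).

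Some genes had many intronic clusters in 1 library and none in the other. Of 46 intron-rich genes listed with no intronic cluster in the ZC3H7A table, 8 had a share in the ZC3H7B library above the limit that a count of 0 allows, taken as 3 counts. All 46 entered through their intronic clusters in the ZC3H7B library, so nothing is read from this count. RBM4, a splicing and translation regulator, had 0 of 5 clusters intronic with ZC3H7A, which allows up to 60.0%, and 21 of 29 with ZC3H7B (72.4%, 52.8 to 87.3%). TARDBP, which encodes TDP-43, had 0 of 17, which allows up to 17.6%, and 11 of 39 (28.2%, 15.0 to 44.9%). The lower end of the interval fell below the limit for both genes. The limit of 3 counts is not the exact interval given for the other shares, and no difference in share was tested. PAIP2, an inhibitor of poly(A)-binding protein, had 0 of 9 and 8 of 19, and MAML1, a Notch coactivator, had 0 of 10 and 9 of 29. In the ZC3H7B table ZNF383, UAP1 and PPAN had no intronic cluster, of 12, 15 and 1 clusters, beside 5 each in the ZC3H7A library.

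In all, 9 intron-rich genes were listed in the ZC3H7B table alone and none in the ZC3H7A table alone. KCTD1, a member of the BTB-domain family, had 25 intronic clusters of 26 and 382 reads. HEATR2, an assembly factor of ciliary dynein, had 8 of 14 (300 reads), and TRAPPC10, a subunit of a vesicle tethering complex, had 8 of 19 (184 reads). C16orf46 had 9 of 13 (114 reads) and ZNF286B, a transcribed pseudogene, 8 of 10 (131 reads). Of the 355 intron-rich genes matched to RefSeq, 354 were protein coding and ZNF286B was the exception.

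Reads summed over all clusters of a gene, intronic or not, were compared as the log2 ratio of the ZC3H7B over the ZC3H7A library, with the median of 7171 genes present in both tables, at 20 or more reads summed, set to 0. The 347 intron-rich genes compared had a median of 0.13, with a range from -5.09 to 4.47. The whole interval lay beyond 2-fold, higher in the ZC3H7B library, for 55 of them (15.9%), beside 18.3% of all genes compared. It lay beyond 2-fold, higher in the ZC3H7A library, for 51 (14.7%), beside 18% of all genes compared. Neither share was above that of all genes. In distinct reads 24 (6.92%) and 31 (8.93%) did so, beside 7.31% and 10.1%. Scaled to total reads, the median over all genes compared moved to 0.16 and that of the intron-rich genes to 0.29.

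Genes past the minimum in 1 library alone had more reads there. The choice rests on clusters of that library, so nothing is read from this. The median log2 read ratio was -0.15 for the 99 genes past it in both libraries, -1.47 for the 32 past it with ZC3H7A alone and 0.48 for 216 compared genes past it with ZC3H7B alone. Among genes with at least 100 reads summed, PPAN, a ribosome biogenesis factor, had 240 and 5 reads (log2 ratio -5.09, -6.73 to -3.85). RPL10A, a protein of the large ribosomal subunit, had 741 and 27 reads (-4.29, -4.90 to -3.73), with 7 intronic clusters of 10 and 1 of 3. GALNT3, a glycosyltransferase, PURG and FAM13A followed at -2.86, -2.81 and -2.64.

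The highest ratios, at 100 or more reads summed over both libraries, were on genes with few reads in the ZC3H7A library. RGS3, a regulator of G protein signalling, had 8 reads in 1 cluster there and 126 in 14 in the ZC3H7B library, every cluster being intronic (log2 ratio 4.47, 3.45 to 5.71). DNAJB6, a chaperone, had 25 and 258 reads (3.86, 3.27 to 4.52), with 1 intronic cluster of 2 and 11 of 20. SOGA3, RELL1 and HTT, which encodes huntingtin, followed at 3.77, 3.47 and 3.33. HTT had 1 cluster with ZC3H7A, which was intronic, and 12 intronic clusters of 14 with ZC3H7B. These 5 genes had between 2 and 6 distinct reads in the ZC3H7A library.

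**Figure D4:**
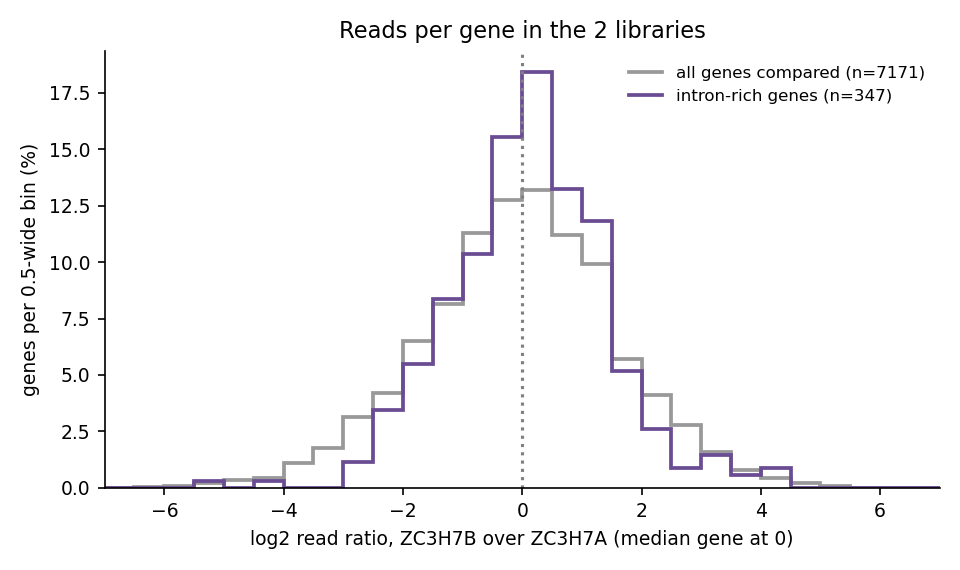
Percent of genes per bin 0.5 wide (y axis) by log2 read ratio of the ZC3H7B over the ZC3H7A library (x axis), with the median gene at 0, for 347 intron-rich genes and all 7171 genes compared. The median of the intron-rich genes is at 0.13 and their values run from -5.09 to 4.47.

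The conversion of intronic clusters could be read where every cluster of a gene was intronic. With a single cluster, 181 such genes with ZC3H7A and 136 with ZC3H7B had a median T-to-C share of 100%, as did genes with a single coding or 3' UTR cluster. They had medians of 25 and 6.50 reads per cluster, beside 25 and 7 for coding and 24 and 7 for 3' UTR clusters. Distinct reads per cluster had a median of 2 in each region with ZC3H7A and of 4 to 5 with ZC3H7B. With so few distinct reads, the shared median of 100% says little on any difference between regions. With 5 or more clusters, all intronic, 7 genes with ZC3H7A had a median conversion of 92.3% and 24 genes with ZC3H7B one of 92.6%. For coding clusters alone the medians were 95.8% (152 genes) and 91.8% (90 genes), and for the 3' UTR alone 95.3% (101 genes) and 90.6% (503 genes). Of the 3 regions, introns therefore had the lowest median with ZC3H7A and the highest with ZC3H7B. The quartiles overlapped, at 90.1 to 97.5% for introns, 92.4 to 98.7% for coding and 90.8 to 98.2% for 3' UTR clusters with ZC3H7A. With ZC3H7B they were 88.7 to 96.4%, 87.8 to 95.4% and 87.8 to 93.3%, so nothing is read from the order.

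Reads per cluster of these genes were at the lower end. All-intronic genes with 5 or more clusters had medians of 38 and 9.60 reads per cluster in the ZC3H7A and ZC3H7B libraries, beside 46.0 and 10.4 for coding clusters and 42.8 and 13.1 for 3' UTR clusters. Intron-rich genes past the minimum in the ZC3H7A library had medians of 79.6 reads per cluster where under 25% of clusters were intronic (13 genes), 52.5 at 25 to 50% (53 genes) and 43.7 above 50% (65 genes). In the ZC3H7B library the medians were 20.1 (73 genes), 15.1 (123 genes) and 11.2 (128 genes). Clusters per gene had medians of 36, 18 and 11 and of 41, 21 and 14 in the same classes. With 5 or more intronic clusters required, a low intronic share needs many clusters, and reads per cluster were not compared at equal numbers of clusters. The intron-rich genes as a whole had 45.8 and 14.7 reads per cluster, beside 38.1 and 12.1 on other genes, and 94.3% and 90.1% conversion, beside 97.5% and 91.1%. They had medians of 11 and 21 clusters per gene, beside 3 and 6 on other genes. Genes with a single cluster had conversion medians of 100%, and conversion was not compared at equal numbers of clusters.

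**Figure D5:**
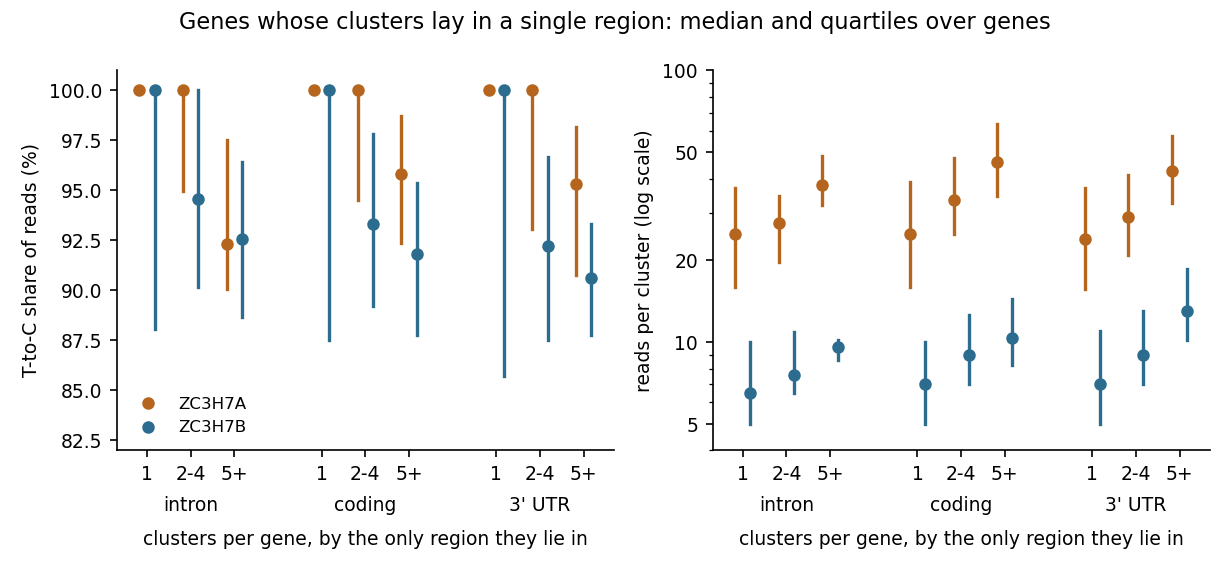
T-to-C share of the reads (left, y axis in percent) and reads per cluster (right, y axis logarithmic) for genes whose clusters all lay in introns, coding sequence or the 3' UTR, by clusters per gene (x axis). Points are medians over genes and lines the quartiles. With 1 cluster all conversion medians are at 100%. The ZC3H7A library has more reads per cluster throughout, but fewer distinct reads per cluster, which are not drawn.

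Lists of genes with a reason to show intronic RNA were then counted, against 3.51% of all listed genes being intron-rich. Of 39 genes reported to keep detained introns, 35 were listed in either table and 5 of these were intron-rich. An intronic cluster was on 13 of 33 listed in the ZC3H7A table and 18 of 34 in the ZC3H7B table, beside 18.7% and 21.5% of all genes listed there. Besides SON, HNRNPA2B1 and HNRNPDL these were RBM39, a splicing coactivator (5 of 16 and 13 of 32), and PNISR, a serine and arginine-rich protein (none of 18 and 5 of 30). The median log2 read ratio of the list, over 32 compared genes, was -0.36. Of all clusters on the list, 30 of 537 with ZC3H7A and 79 of 778 with ZC3H7B were intronic. Over all genes 6.18% and 6.13% of clusters were. Genes with many clusters pass a minimum count more easily, and the lists were not matched to other genes in clusters per gene. Of 31 cleavage and polyadenylation factors, 30 were listed and 4 were intron-rich. WDR33, which binds the polyadenylation signal, had 9 of 27 and 11 of 49, and PAPOLA, the poly(A) polymerase, had 5 of 19 and 10 of 36. RBBP6 (1 of 30 and 5 of 41) and SCAF8 (1 of 26 and 5 of 38) passed through the ZC3H7B library alone.

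Among the microRNA hosts named above, 3 of 25 listed genes (12%) were intron-rich. In the remaining lists the share of intron-rich genes was near that of all listed genes or there was none. Of 48 hosts of small nucleolar RNAs, 37 were listed in the ZC3H7A table and 34 in the ZC3H7B table, and RCC1, a nuclear exchange factor, was the one that was intron-rich (5 of 21 and 3 of 20), or 2.70% of the 37 listed in either table. A small nucleolar RNA gene lay inside 3.38% of matched intron-rich genes, beside 3.87% of listed genes. Of 50 long genes with very large introns, 28 were listed in each table and 30 in either. WWOX, an oxidoreductase gene at a common fragile site, was the one that was intron-rich (3.33%). Of 16 nuclear long noncoding RNAs, 7 and 4 were listed and none had a cluster called intronic.

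Families and overlapping genes were counted after the members were seen, so they are descriptions. ZNF symbols made up 19 of the 356 genes (5.34%), beside 361 of 10151 listed (3.56%), and ZNF483 had 4 intronic clusters of 7 and 25 of 27. In the CNOT family, subunits of the CCR4-NOT deadenylase, 3 of 10 listed symbols were intron-rich, beside 3.51% of all listed genes. CNOT4 had 3 of 9 and 23 of 43, CNOT7 had 2 of 11 and 10 of 30, and CNOT6 had 4 of 28 and 7 of 51. In the RBM family 4 of 32 were, and RBM15, a factor of RNA methylation, had 5 of 19 and 20 of 34. The other families counted were DNAJ (3 of 34), PHF (2 of 17), MED (2 of 27), HNRNP (2 of 33) and SRSF (1 of 11). Families were not matched to other genes in clusters per gene.

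Overlapping gene models touch what is called an intron. Of the 356 genes, 5 were readthrough symbols that join neighbouring genes, of 88 such symbols listed. RBAK-RBAKDN had 6 of 7 clusters intronic with ZC3H7A and 12 of 12 with ZC3H7B, while RBAK, the zinc finger gene it includes, had 23 and 43 clusters of its own and none was called intronic. C7orf55-LUC7L2 had 37 and 48 clusters, and LUC7L2 itself 5 and 7, of which 4 in each library were intronic. A protein-coding gene lay inside 25 of the 355 matched intron-rich genes (7.04%), beside 3.67% of listed genes. How the authors' calling divided reads between overlapping genes is not given in the sources used here, so clusters on these symbols are uncertain.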

How the data were processed

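The authors deposited a gene table for each library. The submitters' processing notes name STAR 2.5.2a, Bowtie, cutadapt and build hg19. Their roles, the cluster caller and the intron annotation: not given in the sources used here. Per the file headers, the deposited counts are clusters, reads summed over clusters, distinct reads summed over clusters, and clusters in each transcript region. Regions are given as numbers of clusters, not reads, so no reads can be assigned to introns. The deposited fraction is a median over clusters of the T-to-C share of the reads. The deposited score used here is the sum of that fraction over clusters, which was divided by the number of clusters to give a gene's conversion. A score of conversion specificity was not used. The start and stop codon columns were read as numbers of clusters, and the exon column as coding sequence. No reads outside clusters enter the tables.

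Rows of class repeat, tRNA, srpRNA, scRNA and RNA were left out (277 and 403), and none of them held an intronic cluster. The 356 genes, the gene lists and the tests were chosen with earlier results of these data known. The named genes followed a rule: the 10 with the most intronic clusters and the 5 with the most reads in each library, 15 by their lower intronic count, 5 at each end of the ratios with at least 100 reads, the 5 of a single table with the most reads, members of the lists, and genes at 5 and 4. Genes named outside it were chosen after their values were seen. Shares have Clopper-Pearson 95% intervals, and ratios exact intervals from a conditional binomial. The script for ratios was first tested on simulated data. Symbols were matched to RefSeq tables (GRCh38.p14), of another build than the deposited files, for names, biotypes, nesting of genes and hairpins within that build, and sequences. Alternatives covered the minimum, reads, scaling and filters. Python 3.11.15, pandas 2.3.3, numpy 2.4.6 and scipy 1.17.1 were used, and edgeR 4.0.16 (R 4.3.3) gave TMM factors for scaling, with no test run in it.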

Additional observations from a re-analysis of the deposited data

How the results depend on the processing

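No paired analysis was possible because each protein has 1 library, and both carry the same replicate number. Of 52 alternative values, 21 stayed within the main value's interval, spread or 1.5-fold range and 31 moved; 1 of these, the median log2 read ratio, changed sign, from 0.13 to -0.084, with mean reads per cluster, and it was 0.29 scaled to total reads. With a minimum of 3 intronic clusters the chosen genes held 63.7% and 73.9% of the intronic clusters of the ZC3H7A and ZC3H7B libraries, these were 25.5% and 29.7% of their clusters, and 204 genes passed in both. With a minimum of 10 the values were 28.5% and 33.1%, 41.5% and 49.0%, and 26. The intronic share was 38.8% in the ZC3H7B library over clusters with a named region, and its median over genes was 33.3% and 39.6%. With 1 intronic cluster sufficing in the ZC3H7A library, 269 genes chosen in the ZC3H7B library were shared. Genes beyond 2-fold, higher in the ZC3H7B and the ZC3H7A library, numbered 24 and 31 in distinct reads, 17 and 14 in mean reads per cluster (4.90% and 4.03%, beside 6.18% and 4.66% of all 7171 genes), and 2 and 0 in numbers of clusters, where 23 and 16 of all were called.

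The median conversion of the intron-rich genes was 100% and 93% with the deposited median over clusters, and 93.2% in the ZC3H7A library with at least 20 distinct reads. That of genes with intronic clusters alone was 100% in both libraries, and 88.3% and 93.1% with at least 20 distinct reads. Their reads per cluster were 27 and 7.17, against 2 and 4.42 in distinct reads and 31 and 8.68 with at least 2 clusters. Distinct reads per cluster limit single genes: in the ZC3H7A library their median was 4.11 over intron-rich genes and 3.8 over genes with 5 or more clusters, all intronic. Without replicates or a control library, the spread between experiments and the background are unknown.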
